A study of Mus musculus with 32 samples.

Results

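The genes described here encode the nuclear subunits of respiratory complex I, the NADH dehydrogenase of the mitochondrial inner membrane. Members were the protein-coding genes whose GENCODE M21 symbol starts with Nduf, without the assembly factors named Ndufaf, which gave 38 of the 56246 gene rows of the count table. RNA came from bone marrow cells of C57BL/6 mice with a FLT3-ITD transgene, sorted as LSK cells (lineage-negative, Sca-1+ Kit+ cells, which include the stem cells) or as GMP (granulocyte-macrophage progenitors). Within each cell type the mice had been given Combination (AC220 with Lys05), AC220 (quizartinib, an inhibitor of the FLT3 receptor kinase), Lys05 (a lysosomal inhibitor that blocks autophagy) or Vehicle, with 4 libraries in each of the 8 groups and 32 in all. Every group carries the transgene, and the labels give no group without it, no dose, no treatment time, no age and no promoter that drives the transgene. The labels call the 4 samples of a group biological replicates without animal numbers, so p-values measure the spread between these samples, and libraries are numbered here by their order in the sample list. The question the design puts to these genes is how their RNA differed between treatments in each cell type, and whether the differences followed transcript length.

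Complex I takes electrons from NADH, passes them along iron-sulfur clusters to ubiquinone and pumps protons out of the matrix. Core subunits carry out the chemistry: the N module oxidizes NADH, the Q module reduces ubiquinone, and the core of the membrane arm is encoded by mitochondrial DNA. Accessory subunits surround the core in the matrix arm, in the proximal membrane arm and in the distal membrane arm, and are needed for assembly and stability. Of the 38 members, 3 belong to the N module core, 4 to the Q module core, 9 to the matrix arm accessories, 9 to the proximal and 10 to the distal membrane arm accessories. Ndufab1, the mitochondrial acyl carrier protein, stands by itself, and Ndufa4 and its hypoxia-induced paralogue Ndufa4l2 keep the name although Ndufa4 is now placed with cytochrome c oxidase, complex IV. Quiescent stem cells are known for low use of mitochondrial respiration and their progeny for higher use.

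The promoters of members are shown because the results turn on genes that moved together, and because the upstream factors NRF1, GABPA and YY1 are known to bind at many genes of the respiratory chain. The windows hold 250 bases before and 50 after the gene's start and come from RefSeq on GRCm38.p6, where 33 of the 38 members had at least 1; the first listed window of each gene was used. Ndufa2, Ndufa4l2, Ndufb9 and Ndufs1 were among those with none. Both strands were searched for GCGCANGCG (NRF1), CCGGAAG (GABPA) and AANATGGC (YY1), and capitals mark the matches. Shown are 4 of the members with the largest falls in LSK cells and, for contrast, Ndufv1, which was not called lower. Ndufc1 lies at chr3:51408906-51409205 (minus strand), Ndufb8 at chr19:44555393-44555692 (minus strand), Ndufb4 at chr16:37654319-37654618 (minus strand), Ndufb7 at chr8:83566508-83566807 (plus strand) and Ndufv1 at chr19:4012706-4013005 (minus strand).
Ndufc1: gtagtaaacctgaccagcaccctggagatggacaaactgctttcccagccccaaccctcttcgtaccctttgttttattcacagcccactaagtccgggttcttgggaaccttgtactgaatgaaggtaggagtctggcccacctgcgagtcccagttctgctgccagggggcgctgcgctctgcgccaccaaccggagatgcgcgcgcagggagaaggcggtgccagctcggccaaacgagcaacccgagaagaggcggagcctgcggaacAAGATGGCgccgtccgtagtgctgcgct
Ndufb8: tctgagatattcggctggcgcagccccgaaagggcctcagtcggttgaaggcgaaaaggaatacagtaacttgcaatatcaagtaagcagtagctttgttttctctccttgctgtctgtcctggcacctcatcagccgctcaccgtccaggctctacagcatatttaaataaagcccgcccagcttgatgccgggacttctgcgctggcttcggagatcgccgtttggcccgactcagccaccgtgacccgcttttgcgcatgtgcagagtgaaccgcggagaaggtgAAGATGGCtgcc
Ndufb4: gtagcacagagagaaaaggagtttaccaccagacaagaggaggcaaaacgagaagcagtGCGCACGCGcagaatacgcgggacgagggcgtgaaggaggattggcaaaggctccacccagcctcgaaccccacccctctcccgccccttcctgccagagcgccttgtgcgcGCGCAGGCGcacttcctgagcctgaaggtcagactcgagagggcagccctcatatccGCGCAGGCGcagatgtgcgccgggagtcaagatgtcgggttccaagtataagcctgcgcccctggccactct
Ndufb7: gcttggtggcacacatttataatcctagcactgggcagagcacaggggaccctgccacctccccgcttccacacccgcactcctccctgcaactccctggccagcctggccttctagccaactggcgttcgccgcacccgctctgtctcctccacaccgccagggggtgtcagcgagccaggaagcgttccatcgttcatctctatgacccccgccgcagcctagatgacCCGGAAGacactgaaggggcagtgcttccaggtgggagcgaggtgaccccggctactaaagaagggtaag
Ndufv1: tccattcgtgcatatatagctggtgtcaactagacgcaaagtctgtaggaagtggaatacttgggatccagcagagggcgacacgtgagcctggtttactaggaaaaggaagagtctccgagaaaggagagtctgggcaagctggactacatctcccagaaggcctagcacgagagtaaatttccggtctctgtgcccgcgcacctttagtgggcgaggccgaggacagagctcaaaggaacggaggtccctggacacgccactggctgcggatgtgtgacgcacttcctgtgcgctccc
The capitals in the Ndufc1 and Ndufb8 windows are YY1 matches close to the start, those in the Ndufb4 window are 3 NRF1 matches, and the one in the Ndufb7 window is a GABPA match. The Ndufv1 window held none of these letters. Over the members, the NRF1 letters were in the window of 8 of the 33 genes (24.2%) against 6.47% of all 27025 genes with a window, 1 window each, and the YY1 letters in that of 11 (33.3%) against 6.23%. The GABPA letters were in that of 4 members (12.1%) against 9.12% of all these genes. At least 1 of the 3 motifs was in that of 20 members (60.6%) against 19.2% of all these genes, and in none of the 33 windows used did matches of different motifs overlap. The windows of Ndufa12, the member that fell most, and of Ndufa7, also among the largest falls, are not printed and held none of them. Those of Ndufab1 and Ndufv2, which fell as well, held none either. Whether motifs and falls go together was not tested.

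Each library held between 35.7 and 55.9 M counts on genes. Levels are in CPM, a gene's counts per 1 M gene counts after TMM scaling, with members scaled within the LSK or GMP fit unless named otherwise and cell type markers scaled over all 32 libraries. The sorted populations differed in their defining genes: Elane, a granule protease of granulocyte progenitors, was at 263 to 1691 CPM in the 16 LSK libraries and 4683 to 48715 CPM in the 16 GMP libraries. Ly6a, which encodes the Sca-1 antigen of the LSK gate, was at 48.4 to 159 CPM (median 102) in LSK libraries and 0.0315 to 55.9 CPM (median 1.35) in GMP libraries, so its ranges overlapped. GMP libraries spread more than LSK libraries, with a common biological coefficient of variation of 1.06 in the GMP fit and 0.475 in the LSK fit. In 5 GMP libraries (Combination 3 and 4, AC220 1 and 3, Vehicle 1) the median correlation with the other 15 GMP libraries was under 0.8. Mitochondrial genes took 0.200% to 18.1% of gene counts. Of the 38 members, 36 passed the filter on low counts in each fit and were tested. Ndufs3, a Q module core gene whose exons overlap Kbtbd4 on the opposite strand, had 0 to 6 counts per library and none in 6 of 32. Ndufa4l2 had 0 to 21 counts and none in 21 of 32 libraries.

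Complex I transcripts took a smaller share of gene counts in LSK cells of mice given AC220, with or without Lys05. The 38 members together held 0.699% ± 0.0406 of gene counts in LSK Combination, 0.550% ± 0.0263 in LSK AC220, 2.29% ± 0.166 in LSK Lys05 and 2.30% ± 0.0767 in LSK Vehicle (SD, n = 4 each). All 4 libraries of the Combination group (0.642% to 0.730%) and of the AC220 group (0.514% to 0.578%) lay below every Lys05 and Vehicle library, the lowest of which was at 2.07%. In GMP the share was 1.92% ± 0.324 with Combination, 2.44% ± 0.272 with AC220, 1.99% ± 0.272 with Lys05 and 2.14% ± 0.295 with Vehicle, and these ranges overlapped. In sorted bulk cells, fewer cells of a type that holds much of this RNA and less of it per cell cannot be told apart. A share sums genes of one library against all others, so it was not tested here and stands as a description.

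**Figure D1:**
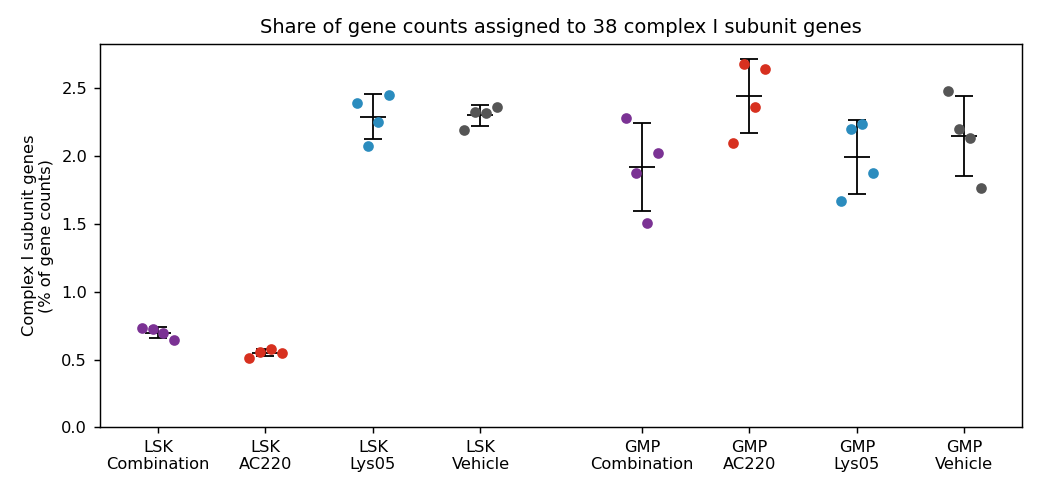
Percent of all gene counts of a library that fell on the 38 complex I subunit genes (vertical axis) in the 8 groups. Points are libraries, the wide tick is the mean and the bars are 1 SD (n = 4); LSK Combination and LSK AC220 sit between 0.514% and 0.730%, the other 6 groups between 1.504% and 2.68%.

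In LSK cells, nearly all tested complex I subunit genes were lower with AC220 than with Vehicle. With edgeR's quasi-likelihood test at an adjusted p under 0.05, 33 of the 36 fell, 1 rose and 2 were not called, against 54.9% of all 15730 tested genes called, 25.5% lower and 29.4% higher. The members' median log2 fold change was -2.69, with a range of -4.47 to 0.83, and the median of all tested genes was 0.09. The libraries of the 2 groups did not overlap for the 33 members that fell, where 23% of all genes were lower without overlap.

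The matrix arm accessory genes all fell, 9 of 9, with a median log2 fold change of -2.71. Ndufa12 (ENSMUSG00000020022, chr10:94198720-94221443, GRCm38), the subunit that takes the place of the assembly factor Ndufaf2 late in assembly, had 106, 98.3, 109 and 97.4 CPM in the LSK AC220 libraries, against 2057, 2329.6, 2335 and 2385 CPM in the LSK Vehicle libraries. Every AC220 library was far below every Vehicle library, and the log2 fold change was -4.47 ± 0.13 (SE; 22.2-fold lower, edgeR adjusted p = 1.64e-12), the largest fall among the members. Ndufa7 (chr17:33824572-33838317) had 136, 153, 167 and 150.0 CPM with AC220, against 1690.5, 1681, 2255 and 2135 CPM with Vehicle, with no overlap and a log2 fold change of -3.68 ± 0.15. Ndufa6, a LYR-motif subunit that binds the acyl carrier protein and the shortest member at 382 bases, had 76.6 to 99.1 CPM with AC220 and 362 to 459.7 CPM with Vehicle, a log2 fold change of -2.26 ± 0.13. Ndufs4, which is added late in assembly, fell by 2.39 on the log2 scale. Ndufa9, which stabilizes the junction of the matrix and membrane arms, had the smallest fall of this class, -0.94 ± 0.18 (edgeR adjusted p = 0.000257), with 127 to 172 CPM with AC220 and 247 to 383 CPM with Vehicle; its exons overlap 1700018A23Rik on the opposite strand.

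The membrane arm accessory genes fell as well, 9 of 9 in the proximal arm (median log2 fold change -2.67) and 10 of 10 in the distal arm (median -3.02). In the proximal arm, Ndufc1 (chr3:51404677-51408988), a small single-pass membrane subunit whose promoter is printed above, had 41.1, 32.2, 34.7 and 37.9 CPM with AC220, against 631, 673, 629 and 638 CPM with Vehicle. The groups did not overlap, and the log2 fold change was -4.14 ± 0.18 (17.6-fold lower). Ndufa10, a membrane arm subunit related to nucleoside kinases, fell least, by 0.59 ± 0.15 on the log2 scale (edgeR adjusted p = 0.00354), with 164 to 198 CPM with AC220 and 219.9 to 353 CPM with Vehicle. In the distal arm, Ndufb8 (chr19:44548572-44555440), whose protein is widely used as a marker of assembled complex I, had 88.6, 102, 102 and 102 CPM with AC220, against 1384, 1539.97, 1917 and 1786 CPM with Vehicle. That is a log2 fold change of -4.07 ± 0.14 (16.8-fold lower) with no overlap. The annotated exons of Ndufb8 overlap those of Gm20538 on the same strand, so their counts cannot be fully told apart. Ndufb4 (chr16:37647170-37654453) had 34.98, 35.7, 41.9 and 40.8 CPM with AC220, against 457, 546, 526 and 598 CPM with Vehicle, a log2 fold change of -3.79 ± 0.16. Ndufb4 has a named processed copy in the genome, so reads may be shared with it. Ndufb7 (chr8:83566671-83571626), which faces the intermembrane space, was lower by 3.65 ± 0.13 on the log2 scale.

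The core genes did not move as 1 group. In the N module, Ndufv2, which carries an iron-sulfur cluster, fell by 3.25 ± 0.13 on the log2 scale (96.4 to 119 CPM with AC220, 848 to 1180.2 CPM with Vehicle). Ndufv1 (chr19:4007384-4012806), which binds FMN and NADH, had 219.9, 277, 302 and 268 CPM with AC220, against 153, 159, 249.96 and 248 CPM with Vehicle; the groups overlapped, and the log2 fold change of 0.40 ± 0.21 was not called (edgeR adjusted p = 0.129). Ndufs1 (chr1:63143596-63176833), the iron-sulfur subunit that passes electrons on from Ndufv1 and Ndufv2, was the single member that rose: 60.4, 83.5, 81.8 and 85.4 CPM with AC220, against 47.3, 33.1, 42.0 and 52.2 CPM with Vehicle. All AC220 libraries were above all Vehicle libraries, by 0.83 ± 0.16 on the log2 scale (1.78-fold, edgeR adjusted p = 0.000241). Its exons overlap Eef1b2 and Ino80dos on the opposite strand, and whether counting used strand is not given in the sources used here. In the Q module, Ndufs7 and Ndufs8, iron-sulfur subunits on the path to ubiquinone, fell by 2.17 ± 0.14 and 2.13 ± 0.17.

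Ndufab1 (chr7:122085403-122101886), the acyl carrier protein, had 24.1, 23.3, 25.2 and 23.9 CPM with AC220, against 213, 222, 245 and 241 CPM with Vehicle, a log2 fold change of -3.26 ± 0.12 with no overlap. Its exons overlap Gm44986 on the opposite strand, and it has a named pseudogene that may share reads. Ndufa4 (chr6:11900292-11907497), of complex IV, had 163, 190.2, 183 and 194 CPM with AC220, against 1177, 1329, 1375 and 1451 CPM with Vehicle, a log2 fold change of -2.87 ± 0.13. These falls went with lower summed counts of antigen-presenting and neutrophil gene lists in the same libraries. The dendritic and MHC class II list of 4 genes summed to 2792 to 13171 CPM in LSK AC220 and 13494 to 53155 CPM in LSK Vehicle, and the neutrophil list of 4 genes to 786 to 1496 CPM in LSK AC220 and 2728 to 6820.5 CPM in LSK Vehicle. All 4 markers of each list had a count in every LSK library. Single markers did not all follow the sums. Xcr1 had 12.7 to 89.6 CPM in LSK AC220 and 13.6 to 33.7 CPM in LSK Vehicle. S100a9 had 310 to 495 CPM and 437 to 1245 CPM in the same groups, with overlap. Cd74 overlapped too, at 1286 to 6811 CPM in LSK AC220 and 5962 to 24206 CPM in LSK Vehicle. The list of 7 LSK markers summed to 651 to 1022 CPM in LSK AC220 and 380.4 to 413 CPM in LSK Vehicle. Cd34 made up most of it, at 394 to 636 CPM in LSK AC220 and 177 to 205 CPM in LSK Vehicle. Kit and Meis1 were also higher without overlap. Ly6a (48.4 to 95.4 CPM in LSK AC220, 56.1 to 124 CPM in LSK Vehicle), Procr, Mecom and Hlf overlapped. Measures of the libraries themselves moved with the result as well, without overlap. Mitochondrial genes took 0.265% to 0.371% of gene counts in LSK AC220 and 0.469% to 1.64% in LSK Vehicle. Table lines that name no gene held 15.2% to 18.2% of all counts in LSK AC220 and 19.1% to 22.5% in LSK Vehicle. The line of ambiguous reads among them held 6.76% to 7.24% of all counts in LSK AC220 and 8.20% to 9.20% in LSK Vehicle. The part of these lists and measures in the result was not tested.

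**Figure D2:**
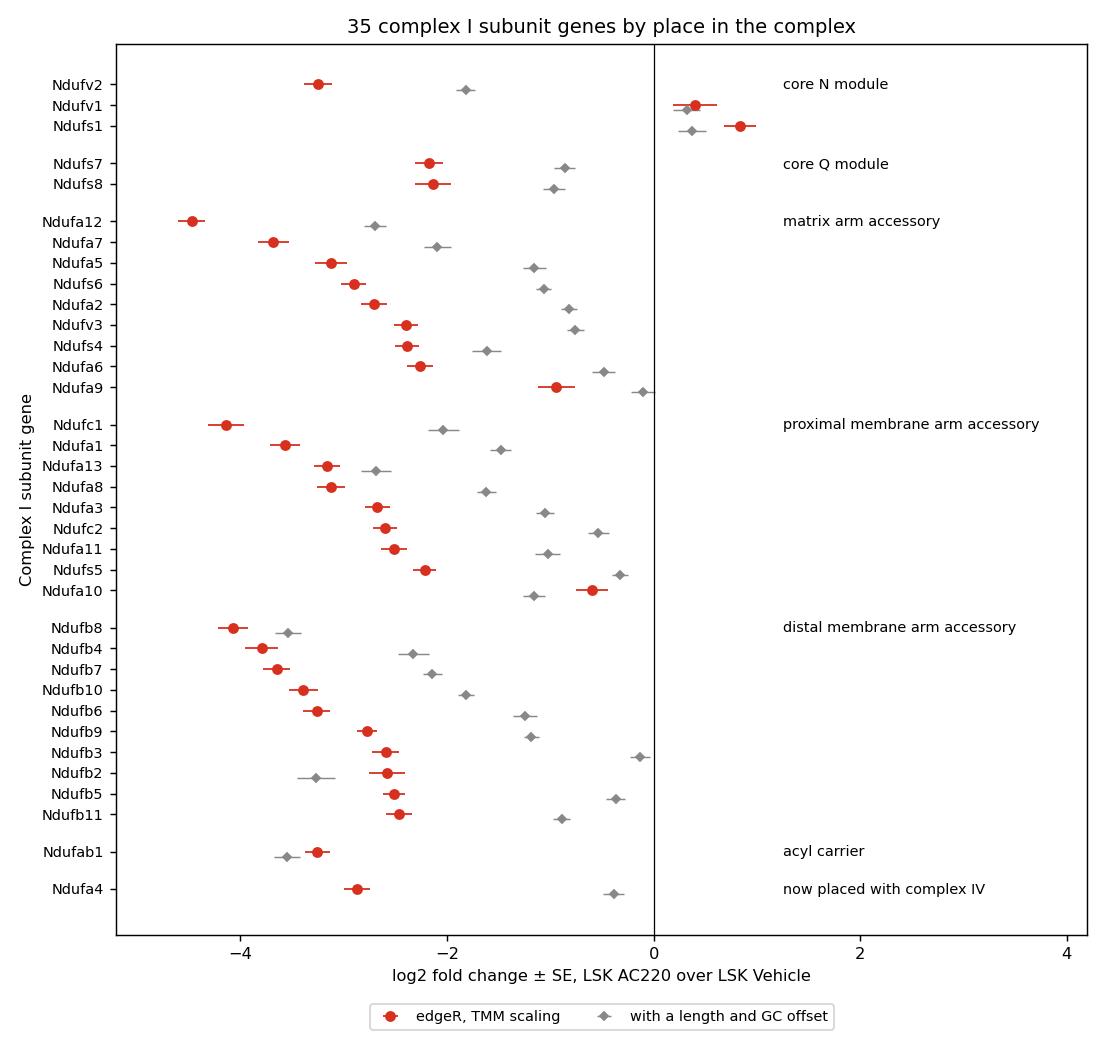
Log2 fold change of LSK AC220 over LSK Vehicle (horizontal axis, ± SE) for 35 of the 36 tested complex I subunit genes, grouped by place in the complex. Red circles are edgeR values with TMM scaling and grey diamonds the values after a length and GC offset; all accessory genes lie left of 0 under both, and Ndufs1 and Ndufv1 lie right of it.

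Members are short genes, with a median transcript length (over annotated transcripts) of 772.5 bases where that of all tested LSK genes is 2344 bases, and short genes as a class were lower with AC220. Genes under 1000 bases took 18.7% of gene counts in LSK Combination and 16.8% in LSK AC220, against 36.4% in LSK Lys05 and 37.9% in LSK Vehicle, with no overlap between the first pair of groups and the second. In LSK AC220 against LSK Vehicle, the median log2 fold change of all tested genes was -1.75 under 500 bases, -1.64 from 500 to 1000, -0.86 from 1000 to 1500 and 0.68 from 2000 to 3000 bases. The members of these classes had medians of -2.77, -2.77, -3.20 and -1.59, and 33 of the 36 lay below the median of all genes of their own class, with a median difference of -1.2005 on the log2 scale. The class from 1500 to 2000 bases differed. The median of all genes there was 0.04, and of its 3 members 1 was called lower and 1 lay below that median. Whether transcript length itself moved the counts was not tested.

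Among the members, length ordered the changes only in part. Over the 36 members the log2 fold change correlated with log2 length at a Pearson r of 0.45 and a Spearman rho of 0.29, as a description; with the longest annotated transcript as length, r was 0.24, and with the shortest 0.59. The long members split. Ndufs1 at 2625.5 bases was 0.15 above the median of its class, while Ndufab1 at 2447.5 bases differed from its class median by -3.94 and Ndufb2 at 2413 bases by -3.26. Ndufb2 has annotated transcripts from 455 to 4371 bases, and its exons overlap Braf and Gm16272 on the opposite strand and Gm42420 on the same strand, so its length and counts are uncertain. Ndufs4, with a single annotated transcript of 1698 bases, differed from its class by -2.43, and Ndufb8 at 1411 bases by -3.21. Annotated transcripts of Ndufab1 run from 1416 to 3479 bases and those of Ndufb8 from 680 to 2142, so their classes are uncertain too. Members of at least 1500 bases made up 20.7% of complex I counts in LSK AC220 and 4.82% in LSK Vehicle, and core genes 28.6% in LSK AC220 and 12.99% in LSK Vehicle.

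A fit with a length and GC offset left most members lower in LSK AC220 than in LSK Vehicle. The offset takes out of each library a smooth trend with length and one with base composition. The median of all genes from 500 to 1000 bases changed sign, from -1.64 without the offset to 0.22 with it. A smaller shift the other way was therefore left in that class. Under the offset 31 of 36 fell and 1 rose, where 21.4% of all genes fell and 21.6% rose, and the members' median was -1.11. Ndufab1 (-3.55), Ndufb8 (-3.54), Ndufb2 (-3.27), Ndufa12 (-2.70) and Ndufa13 (-2.69) had the largest falls left. The offset used the median length, and all of these but Ndufa13 have both shorter and longer annotated transcripts. How far their values depend on that choice was not tested. The calls of Ndufa9 (-0.10) and Ndufb3 (-0.13) were lost. Ndufa4 and Ndufa6 kept -0.39 and -0.48, and Ndufs1 stayed higher at 0.37 (edgeR adjusted p = 0.0353).

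**Figure D3:**
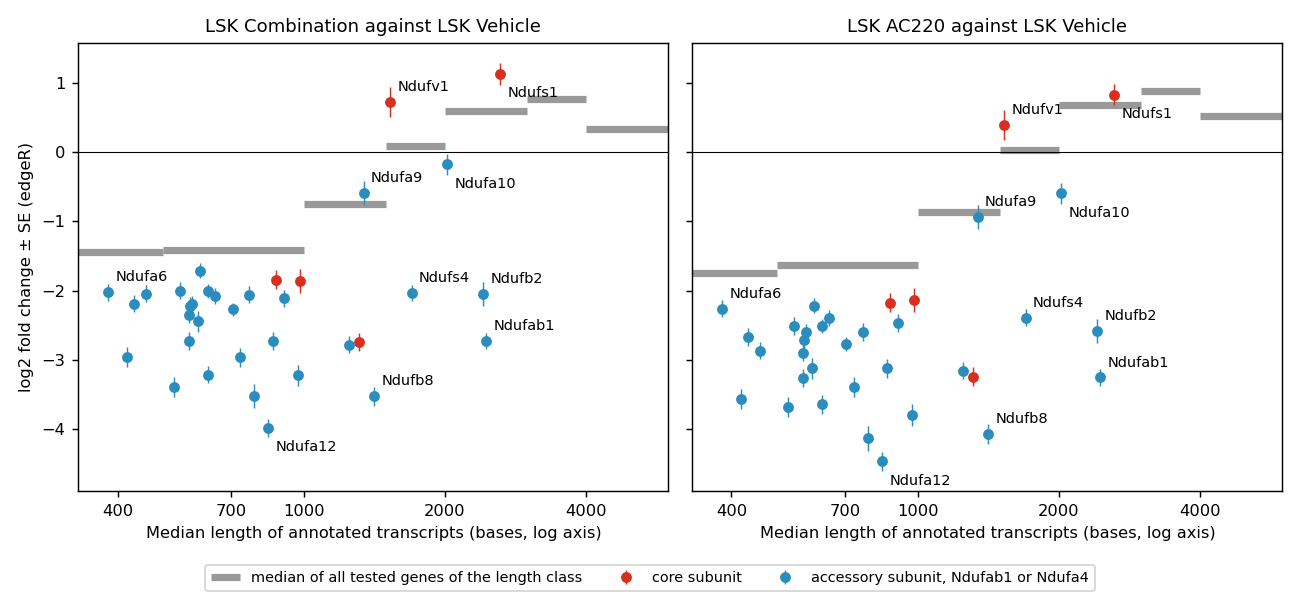
Log2 fold change (± SE, edgeR) of LSK Combination (left) and LSK AC220 (right) over LSK Vehicle, against median transcript length in bases on a log axis. Points are 35 of the 36 tested complex I subunit genes and grey bars the median of all tested genes of a length class; 32 points on the left and 33 on the right lie below the bar of their class.

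With both drugs, most members were lower in LSK cells than with Vehicle; this comparison shares the Vehicle libraries with the one for AC220. Of the 36 members, 32 fell, 3 rose and 1 was not called, where 51.8% of all genes were called, 23.6% lower and 28.3% higher; the members' median was -2.19 and that of all genes 0.06. Ndufa12 had 159.9, 146, 150.2 and 119.6 CPM with Combination, against the Vehicle values of 2057 to 2385 CPM, a log2 fold change of -3.98 ± 0.13. Ndufb8 (132, 151, 164 and 127 CPM with Combination) was at -3.53 ± 0.14, and Ndufc1 (65.5, 54.9, 62.3 and 40.6 CPM) at -3.53 ± 0.17. None of these libraries reached the Vehicle range. Ndufa7 (-3.39), Ndufb4 (-3.23) and Ndufb7 (-3.21) were the next largest falls.

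Among the members that rose with Combination were the N module core genes Ndufs1 and Ndufv1. Ndufs1 had 77.3, 102, 106 and 98.7 CPM with Combination, against 33.1 to 52.2 CPM with Vehicle, a log2 fold change of 1.14 ± 0.16 without overlap (edgeR adjusted p = 1.32e-05). Ndufv1 had 266, 334, 387 and 356 CPM with Combination, against 153 to 249.96 CPM with Vehicle, also without overlap, at 0.73 ± 0.22 (edgeR adjusted p = 0.00936). Ndufa10 was not called at -0.17 (edgeR adjusted p = 0.363). With the length and GC offset 28 members fell and 3 rose, where 20.9% of all genes did in each direction, with a members' median of -0.80; Ndufa4 then stood at -0.00 and Ndufa9 at 0.08 where its value without the offset was -0.59. The dendritic and MHC class II list summed to 349 to 3624 CPM in LSK Combination and 13494 to 53155 CPM in LSK Vehicle, and the neutrophil list to 825 to 2527 CPM in LSK Combination and 2728 to 6820.5 CPM in LSK Vehicle. S100a8 and S100a9 overlapped between these groups, and the other markers of both lists did not. Ambiguous reads held 6.60% to 7.39% of all counts in LSK Combination and 8.20% to 9.20% in LSK Vehicle, while the mitochondrial share and that of lines naming no gene overlapped between these groups. The part of these lists and measures in the result was not tested.

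Set against Lys05 alone, Combination gave 33 members lower and 1 higher, where 49.5% of all genes were called, 22.3% lower and 27.2% higher. This comparison shares the Combination libraries with the one before. The members' median was -2.17; Ndufa12 was at -3.88, Ndufb8 at -3.46 and Ndufc1 at -3.38, and Ndufs1 was the gene that rose (1.24 ± 0.16, edgeR adjusted p = 4.71e-06). Ndufv1 (0.22) was not called. With the length and GC offset 30 members were lower and 2 higher, where 18.7% of all genes were lower and 19.3% higher, and the members' median was -0.91. The calls of Ndufa4 (-0.22 with the offset, -2.13 without), Ndufa9 (-0.19) and Ndufb3 (0.22 with the offset, -1.89 without) were lost, and Ndufv1 was called higher (0.38, edgeR adjusted p = 0.0253). The dendritic and MHC class II list summed to 349 to 3624 CPM in LSK Combination and 7935 to 49429 CPM in LSK Lys05, and the neutrophil list to 825 to 2527 CPM in LSK Combination and 3118 to 7335 CPM in LSK Lys05. S100a8, S100a9 and Xcr1 overlapped between these groups, and the other markers of both lists did not. The part of these lists in the result was not tested.

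In Combination against AC220 in LSK cells all 36 members had a positive log2 fold change, where 54.9% of all genes were positive, but few passed the test. The members' log2 fold changes ran from 0.24 to 0.83 with a median of 0.48, where the median of all genes was 0.04. Short genes as a class were higher too, with medians of 0.33 under 500 and 0.26 from 500 to 1000 bases. Of the 36 members, 35 lay above the median of their own length class, with a median difference of 0.24. Of the 36, 5 were called higher and none lower, against 0.356% of all genes called and 0.343% called higher. Ndufa4 had 354, 371, 291 and 278 CPM with Combination, against 163, 190.2, 183 and 194 CPM with AC220, with no overlap and a log2 fold change of 0.83 ± 0.12 (1.77-fold, edgeR adjusted p = 0.0192). Ndufs6, a zinc-binding matrix arm subunit, had 169.9 to 206 CPM with Combination and 123 to 142 CPM with AC220, at 0.55 (edgeR adjusted p = 0.0453). Ndufb5, Ndufb9 and Ndufs5 had log2 fold changes of 0.50 each, with edgeR adjusted p of 0.0432, 0.0373 and 0.0497. The exons of Ndufb9 overlap Gm49356 on the same strand. Those of Ndufb5 and Ndufs6 overlap Mrpl47 and Mrpl36 on the opposite strand, and Ndufs6 has a named pseudogene. For 27 of the 36 members every Combination library was above every AC220 library, where 7.15% of all genes were. Ndufa12 (0.49, edgeR adjusted p = 0.0770) and Ndufb8 (0.55, edgeR adjusted p = 0.0748) were not called.

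The count of calls between Combination and AC220 depended on the test. It was 20 with DESeq2, which called 2.22% of all genes, and 35 with limma voom and quality weights, which called 13.7%. It was 0 with the length and GC offset, under which 0% of all genes were called and 35 members stayed positive with a median of 0.24. Leaving out any 1 of the 16 LSK libraries gave 0 to 2 calls, except that it gave 13 without Combination 4. The share of all genes called in these fits is not given here. Macrophage markers were higher in the same comparison, at a summed 15.5 to 32.5 CPM over 5 genes in LSK Combination and 3.09 to 12.9 CPM in LSK AC220, and their part in it was not tested.

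With Lys05 alone no member passed the test in LSK cells. Of 36 members 0 were called, as were 0% of all 15730 genes in edgeR; DESeq2 and voom, which called 3.86% and 0% of all genes, called 0 members as well, and at an unadjusted p under 0.05, 5 were higher and 0 lower. Their log2 fold changes ran from -0.20 to 0.51 with a median of 0.00. Ndufa12 had 2359.8, 1738, 1994 and 2375 CPM with Lys05, against 2057 to 2385 CPM with Vehicle, and the groups overlapped. Ndufv1 had the largest value, 0.51 ± 0.21 (edgeR adjusted p = 0.241), with 189 to 373 CPM with Lys05 and 153 to 249.96 CPM with Vehicle.

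**Figure D4:**
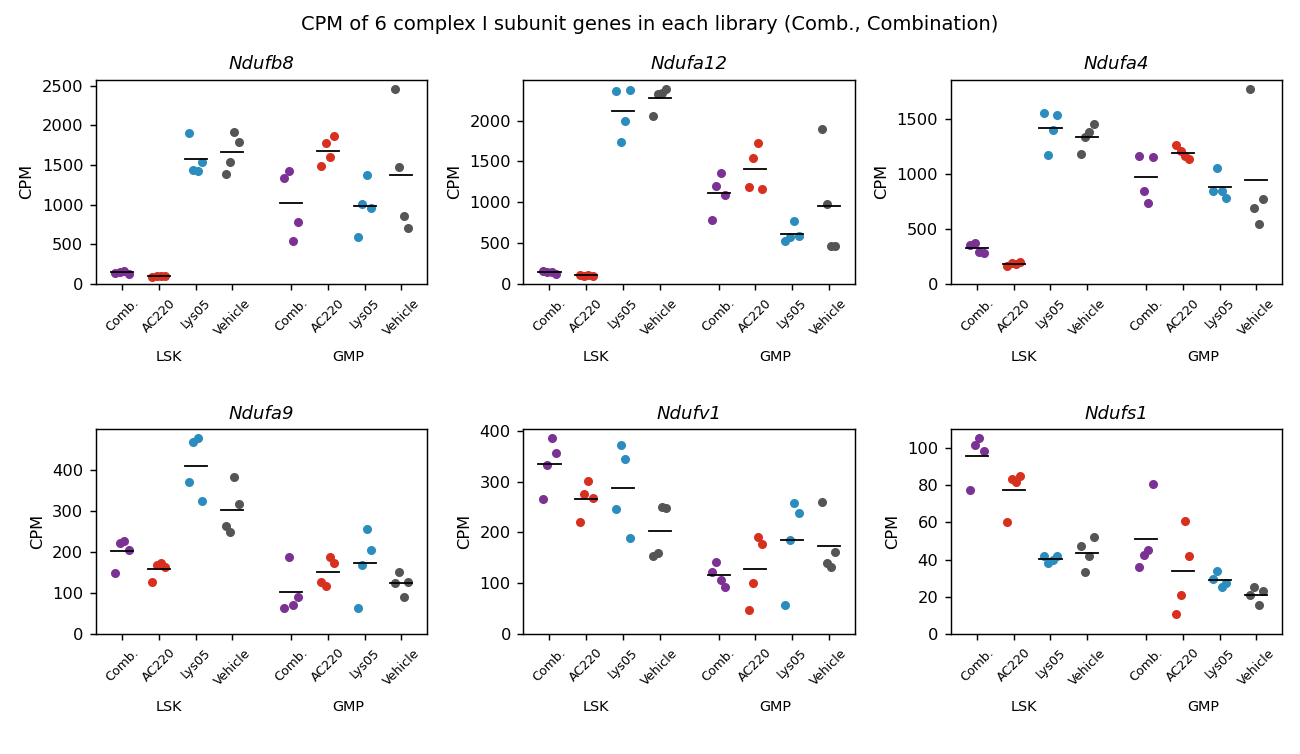
CPM (vertical axes, one scale per gene) of 6 complex I subunit genes in each of the 32 libraries, with LSK and GMP levels scaled in their own fits. Points are libraries and lines are group means (n = 4); Ndufb8, Ndufa12 and Ndufa4 are low in LSK Combination and LSK AC220, Ndufs1 has its highest means there, and in GMP each treated group overlaps Vehicle for the first 3 genes.

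In GMP no member passed the test in any of the 5 treatment comparisons. edgeR called 0 of 36 members in each, beside 0% of all 14572 genes in 4 of them and 0.00686% (1 gene) in Combination against AC220, and DESeq2 called 0 members, beside 2.42% of all genes in Combination against Vehicle, 1.94% in AC220 against Vehicle, 0.0137% in Lys05 against Vehicle, 3.12% in Combination against Lys05 and 5.61% in Combination against AC220. At an unadjusted p under 0.05, 2 members were higher in Combination against Vehicle, 3 in AC220 against Vehicle, 0 in Lys05 against Vehicle, 6 in Combination against Lys05 and 1 in Combination against AC220, and 0 were lower in each. Limma voom called 3 members for AC220 against Vehicle (1.72% of all genes), 1 for Lys05 against Vehicle (5.19%) and 0 in the other comparisons, where it called 0.0137% for Combination against Vehicle, 3.51% for Combination against Lys05 and 0% for Combination against AC220. The members' median log2 fold change against Vehicle was -0.11 with Combination, 0.28 with AC220 and -0.27 with Lys05.

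Ndufa12 had 787, 1204, 1355 and 1087 CPM with Combination, 1185, 1538, 1729 and 1156 CPM with AC220 and 521, 578, 764 and 581 CPM with Lys05, against 1891, 983, 463 and 469 CPM with Vehicle in GMP. Vehicle library 1 was above every AC220 library, and the other Vehicle libraries were below all of them. Ndufb8 had 1337, 1424, 541 and 775 CPM with Combination, 1487, 1771, 1597 and 1869 CPM with AC220 and 591, 1011, 1369 and 955 CPM with Lys05, against 2455, 1472, 859 and 704 CPM with Vehicle. All GMP groups overlapped with Vehicle for these genes. Ndufs1 had 36.2, 42.4, 45.4 and 81.0 CPM with Combination, against 20.98, 24.95, 15.5 and 22.8 CPM with Vehicle; the groups did not overlap, and the log2 fold change of 1.28 ± 0.49 was not called (edgeR adjusted p = 0.359). GMP Vehicle 1 was the highest Vehicle library for 33 of the 36 members. The members' median coefficient of variation was 32.8% in GMP Combination, 21.2% in GMP AC220, 21.8% in GMP Lys05 and 42.3% in GMP Vehicle, against 12.0%, 7.80%, 12.98% and 12.2% in the same treatments of LSK.

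**Figure D5:**
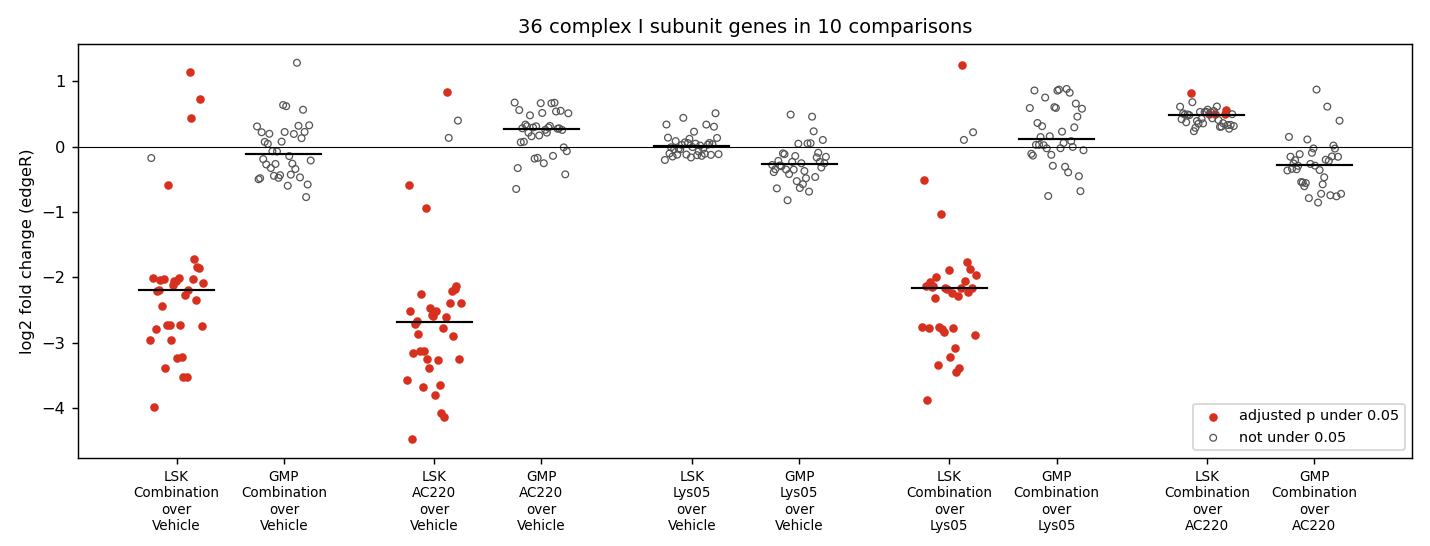
Log2 fold change (vertical axis, edgeR) of the 36 tested complex I subunit genes in 10 comparisons, LSK and GMP side by side. Filled points passed an adjusted p of 0.05, open points did not, and lines are medians; the LSK medians are -2.19 for Combination and -2.69 for AC220 against Vehicle, where the GMP medians are -0.11 and 0.28.

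The difference between the cell types was tested itself, in a fit of all 32 libraries. The effect of AC220 against Vehicle was lower in LSK than in GMP for 31 of the 36 members and higher for 0, where 16.8% of all 17144 genes differed and 8.49% were lower; the members' median difference was -2.88 and that of all genes 0.35. Ndufa12 differed by -4.91 ± 0.39 on the log2 scale (edgeR adjusted p = 2.56e-10) and Ndufb8 by -4.24 ± 0.41 (edgeR adjusted p = 6.12e-09). Ndufa9 (-1.05), Ndufa10 (0.18), Ndufs1 (0.36) and Ndufv1 (0.98) were among those not called. With the length and GC offset 22 members were called lower, where 6.11% of all genes were. The effect of Combination was lower in LSK for 30 members, where 12.7% of all genes differed and 7.59% were lower, with Ndufa12 at -4.18 ± 0.39 and Ndufb8 at -3.03 ± 0.40; under the offset this was 21, where 6.32% of all genes were lower. Without the 5 weakly correlated GMP libraries the counts were 31 and 30, and the share of all genes called there is not given here. Under the offset a trend with length was left in both differences, and it ran in the other direction. For the AC220 difference, the medians of all genes under 500 and over 4000 bases were 0.48 and -0.09. Without the offset they were -1.35 and 0.65. For the Combination difference these medians were 0.13 and -0.55 under the offset, and -1.12 and -0.11 without it.

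Between LSK and GMP under Vehicle few members passed the test. Of the 36, 1 was called, lower in LSK, where 4.84% of all genes were called, 3.07% lower. This was Ndufa2, a thioredoxin-fold subunit of the matrix arm, with 821, 1067, 933 and 866 CPM in LSK Vehicle, against 1667, 1652, 1833 and 1244 CPM in GMP Vehicle in the fit of all libraries. The groups did not overlap, and the log2 fold change was -0.80 ± 0.21 (edgeR adjusted p = 0.0214). The exons of Ndufa2 overlap Tmco6 on the opposite strand. The call was lost with no filter on low counts (-0.80, edgeR adjusted p = 0.0583). It was also lost on leaving out LSK Vehicle 1, 3 or 4 or GMP Vehicle 2 or 3. Without GMP Vehicle 1 there were 4 calls and without GMP Combination 3 there were 2. The share of all genes called in those fits is not given here. At an unadjusted p under 0.05, 3 members were higher and 5 lower; voom, which called 25.4% of all genes, called 13 higher and 2 lower, and DESeq2, which called 11.2%, called 1 in each direction.

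Levels per length (RPKM) ranked the members differently after AC220. In LSK Vehicle, Ndufb7 led with 4053 ± 390.5 RPKM, followed by Ndufa7 at 3675 ± 565 and Ndufa4 at 2897 ± 251 (SD, n = 4 each here and below). Ndufb7 and Ndufa7 were within 1 SD of each other. The lowest tested members were Ndufs1 at 16.6 ± 3.11 and Ndufb2 at 14.6 ± 1.88, the latter within 1 SD of Ndufs1. The length of Ndufb2, and so its RPKM, is uncertain. In LSK AC220 the leaders were Ndufa4 at 397 ± 30.2, Ndufa3 at 333 ± 14.7 and Ndufb7 at 324 ± 29.3 RPKM, the last 2 within 1 SD of each other. Ndufa12 was at 122 ± 6.77 RPKM in LSK AC220 and 2717 ± 177 RPKM in LSK Vehicle, and Ndufs1 at 29.6 ± 4.44 RPKM in LSK AC220 and 16.6 ± 3.11 RPKM in LSK Vehicle.

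Other genes of the respiratory system were counted from lists fixed with earlier results of these data in view. In LSK AC220 against LSK Vehicle, complex I assembly factors, which build the complex without staying in it, had 10 lower and 3 higher of 17 tested, with a median log2 fold change of -1.29, where 25.5% of all genes were lower and 29.4% higher. With the length and GC offset they had 9 lower and 6 higher (median -0.40), where 21.4% of all genes were lower and 21.6% higher. Ndufaf8 (-3.67), Ndufaf2 (-2.63) and Tmem126b (-2.49) fell most, and Acad9 (2.66), Tmem186 (2.27) and Foxred1 (1.69) rose. Nuclear genes of complexes II to V had 32 lower and 2 higher of 37 tested (median -2.26, median length 718.5 bases), and mitochondrial ribosomal proteins 65 lower and 3 higher of 75 tested (median -1.99, median length 1226 bases). With the offset these were 24 lower and 8 higher (median -0.70) and 59 lower and 2 higher (median -1.08). Of the 12 tested genes listed as regulators of respiratory genes, 9 rose and 1 fell, beside the 29.4% of all genes higher and 25.5% lower. Polrmt (2.35), Ppargc1b (1.94), Nrf1 (1.52), Gabpa (1.47) and Esrra (1.12) rose, Yy1 (-1.14) fell, and Tfam (-0.24) was not called. With the length and GC offset 8 were higher and 1 lower, with a median of 0.64, and Esrra was at -0.02.

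The complex I genes of mitochondrial DNA had 5 lower, at -1.62 to -2.33, and 1 higher of 6 tested in that comparison, and under the length and GC offset 1 lower and 4 higher, so their direction depends on the scaling. The one higher without the offset, mt-Nd3, had 15 to 42 counts in LSK AC220 libraries and 0 in all 4 LSK Vehicle libraries. With Combination against Vehicle in LSK, assembly factors had 9 lower and 4 higher of 17, complexes II to V 29 lower and 3 higher of 37, and mitochondrial ribosomal proteins 63 lower and 3 higher of 75, where 23.6% of all genes were lower and 28.3% higher. With the offset assembly factors had 7 lower and 6 higher, complexes II to V 22 lower and 11 higher, and mitochondrial ribosomal proteins 53 lower and 6 higher, where 20.9% of all genes were called in each direction. Combination against AC220 had 9 of 37 genes of complexes II to V higher and 4 of 75 mitochondrial ribosomal protein genes, where 0.343% of all genes were. With the offset 0 of either list were called, as were 0% of all genes.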

How the data were processed

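RNA of sorted LSK and GMP bone marrow cells was sequenced in pairs after low-input amplification, per the labels' protocols, in 32 libraries. The deposited values are raw counts per Ensembl gene in 1 table. Tools named without a role in the submitters' processing notes are STAR 2.7.3a, HTSeq 0.11.2, Trim Galore 0.6.5, DESeq2 1.26.0 and bcl2fastq 2.20, and the genome named is GRCm38. The strand setting is not given in the sources used here. Lines that name no gene held 15.2% to 30.9% of a library's counts and stayed out. The column of GMP Vehicle 2 carries a title with 1 zero fewer than the sample's own and was taken as its only match. GENCODE M21 named 55230 of 56246 rows, and a gene's length is the median of its annotated transcripts.

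The tests were edgeR 4.0.16 robust quasi-likelihood tests, run under R 4.3.3 after filterByExpr and TMM scaling, in 1 fit for LSK (15730 genes), 1 for GMP (14572) and 1 for all libraries (17144). Tests were two-sided, with Benjamini-Hochberg adjustment over all genes of a comparison and calls under 0.05. The procedure was also run on simulated data, without a length trend or with a linear one in log2 length. Those data held no base composition trend, so they cannot show how well the offset works here. CPM and RPKM use the TMM library sizes of the fit. Alternatives were DESeq2 1.42.0, RLE size factors, no filter, limma 3.58.1 voom with quality weights, a length and GC offset, only the groups compared and leaving out each library; the fit without 5 weakly correlated GMP libraries and the shortest transcript as length were chosen after seeing the data. Named are up to 6 members with the largest fall and 6 with the largest rise among those called, the shortest and longest member, and Ndufv1, Ndufs1, Ndufa9, Ndufa10, Ndufa12, Ndufb8, Ndufa4 and Ndufa4l2; others named by class, length or offset were chosen after their values were seen. Some items are not reported here. Members and lists were chosen with earlier results of these data known.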

Additional observations from a re-analysis of the deposited data

Results flagged for a closer look

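A library far from the 3 others of its group was flagged with Dixon's critical value in 4 of 72 sets of 4 libraries; chance flags about 1 in 20 such sets. Ndufa12 was at 2057 CPM in LSK Vehicle 1, where the other Vehicle libraries were at 2329.6 to 2385 CPM. Ndufb8 was at 88.6 CPM in LSK AC220 1, where the others were at 102 CPM. Ndufs1 was at 60.4 CPM in LSK AC220 1, where the others were at 81.8 to 85.4 CPM. Ndufa10 was at 145 CPM in GMP Combination 3, where the others were at 205 to 212 CPM.

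Differences between the cell types under the same contrast were flagged by the test of the difference itself, LSK minus GMP. For AC220 against Vehicle 31 members were called, with Ndufa12 at -4.91 and Ndufb8 at -4.24 on the log2 scale. For Combination against Vehicle 30 members were called, with Ndufa12 at -4.18 and Ndufb8 at -3.03.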

How the results depend on the processing

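No paired analysis was possible because the labels carry no replicate or animal numbers. In LSK cells the counts of members called with AC220 or Combination against Vehicle, and with Combination against Lys05, stayed within 1.5 times of their value under every alternative run and every library left out, as did both differences between the cell types. The 5 calls of Combination against AC220 became 1 with RLE size factors, 1 with no filter, 0 with the offset, 35 with voom, 20 with DESeq2 and 0 with only the groups compared, and 0 to 13 with 1 library left out. Voom called 1 member for GMP Lys05 and 3 for GMP AC220. The 1 call of LSK Vehicle against GMP Vehicle became 0 with no filter, 2 with the offset, 15 with voom and 2 with DESeq2. It became 6 without the weakly correlated GMP libraries and 0 to 4 with 1 library left out. The share of all genes called is not given here for RLE size factors, no filter, only the groups compared or libraries left out. It is also not given for the offset in LSK Vehicle against GMP Vehicle. Those counts therefore cannot be set against all genes. Among the calls lost with the offset, the sign turned for Ndufa9 (0.083) and Ndufb3 (0.037) in LSK Combination against LSK Vehicle. It turned as well for Ndufb3 in LSK Combination against LSK Lys05 (0.22). In the AC220 difference between the cell types it turned for Ndufb5 (0.037). RLE size factors moved the median of all genes to 0.02 in Combination against Lys05, where TMM gave 0.14. The correlation with length, with the longest and the shortest transcript, was 0.24 and 0.59 for AC220 and 0.23 and 0.57 for Combination against Vehicle, and -0.12 and -0.44 for Combination against AC220. Apart from the offset, which takes out a smooth trend with length and base composition, the cause was not tested. The spread of the GMP libraries limits what can be called there, and counts below 10 in Ndufs3 limit that gene.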

Other observations

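Ndufb1-ps, annotated as a non-coding gene and therefore no member, was lower in LSK AC220 than in LSK Vehicle by -2.03 ± 0.14 on the log2 scale (SE, edgeR), and by -0.69 with the length and GC offset.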
